A study of Mus musculus with 8 samples.

Results

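Calcium entering a neuron binds calmodulin, which switches on a set of kinases, a phosphatase and the calmodulin-sensitive adenylyl cyclases. The cyclases make cAMP, which activates protein kinase A, and both routes end in part on the transcription factor CREB. Long-lasting changes of synaptic strength in cortex and hippocampus depend on these enzymes, and the balance between calcium/calmodulin-dependent kinase II and calcineurin is the textbook example.

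The 9 genes described here are Camk2a, Camk2b, Camk4, Camkk2, Prkca, Adcy1, Adcy8, Creb1 and Ppp3ca. They were taken as every non-control probe on the array whose gene name equals one of these symbols, which gave 16 of 39429 probes. All 9 genes were among the 16359 that could be tested, and all 16 probes were tested as well. Camk4 has 3 probes, Camk2a, Camk2b, Camkk2, Prkca and Creb1 have 2 each, and Adcy1, Adcy8 and Ppp3ca have 1 each.

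RNA came from the cortex and hippocampus of naive mice of a mixed 129 C57BL6 background. Mice with a knockout of Tet1 (KO), a dioxygenase that oxidises 5-methylcytosine, were set against wild-type mice (WT), and the labels give neither age nor what part of Tet1 was removed. The 4 groups are KO cortex, KO hippocampus, WT cortex and WT hippocampus, with 2 samples each. Every array carried 1 KO sample labelled with Cy5 and the WT sample of the same tissue and number labelled with Cy3. No dyes were swapped, so a genotype difference and a dye difference cannot be told apart, whereas cortex and hippocampus were compared within 1 dye. Nothing in the labels says that replicates are separate animals, so the p-values reflect no more than the scatter of these samples, which could be technical.

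The 4 arrays shared 1 slide and 1 scan, no spot was saturated, and the number of arrays limits the precision. Probes well above background made up 66.6% to 67.2% of spots in the KO channel and 49.7% to 51.7% in the WT channel. The mean log2 level of 13 hippocampal field markers was 9.36 to 9.52 in the 4 cortex samples and 11.49 to 11.76 in the 4 hippocampus samples. For 11 markers of cortical pyramidal layers it was 11.70 to 11.82 in cortex and 10.76 to 10.95 in hippocampus, so the tissue labels and these means point the same way. Single markers did not all do so. In each genotype 3 of the 11 were below 0 in cortex over hippocampus, and 2 were called lower. Of the 13 hippocampal field markers, 1 was called higher in KO cortex and 0 in WT cortex. Markers of striatal projection neurons (14 measured) averaged 12.54 and 12.61 in KO cortex, 12.99 and 12.73 in WT cortex, and 10.33 to 10.64 in hippocampus. In KO over WT all 14 striatal markers were below 0 in cortex (median −0.29), against 8 of 14 in hippocampus (median −0.02). None of them passed in either tissue. Choroid plexus markers (14 measured) averaged 12.07 and 11.29 in KO cortex and 8.98 and 9.54 in KO hippocampus, and 11.47 and 9.23 in WT cortex and 8.90 and 12.42 in WT hippocampus. None of the 14 passed, but all 14 were above 0 in KO cortex over KO hippocampus (median 1.98), against 3 of 14 in WT (median −0.26). In KO over WT all 14 were above 0 in cortex (median 1.3) and all 14 below 0 in hippocampus (median −1.46). The WT hippocampus sample at 12.42 was also highest for thalamic markers (11.43, against 10.06 to 10.25 in the other 7 samples). Their part in the results below was not tested, and in bulk tissue fewer cells of a type and less RNA per cell cannot be told apart. The 9 neuronal markers measured averaged 14.82 to 15.00 in all 8 samples. Tet1 itself read 0.18 log2 units lower in KO (SE 0.05, limma adjusted p = 0.0804, mean of both tissues), which did not pass, and was well above background in every sample.

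Values below are log2 levels after loess and between-array scaling, taken from the brightest probe of each gene. Levels of different genes come from different probes and are not compared. Differences are log2 units, cortex minus hippocampus or KO minus WT, with the standard error (SE) of a limma fit over all 16359 genes, and a gene was called where its Benjamini-Hochberg adjusted p was under 0.05.

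A single coding-sequence probe is shown for each of 3 members, because these are the letters that captured the transcript: Camkk2, which was higher in cortex, Camk2b, which was lower, and Adcy8, which passed in KO and narrowly missed in WT. Each is in lower case, 5′ to 3′ as on the array, at its mm9 position and strand.
Camkk2, chr5:123187482-123187541, minus strand: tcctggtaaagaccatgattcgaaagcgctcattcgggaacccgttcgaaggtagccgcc
Camk2b, chr11:5872636-5872695, minus strand: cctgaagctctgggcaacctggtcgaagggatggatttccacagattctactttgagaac
Adcy8, chr15:64530939-64530998, minus strand: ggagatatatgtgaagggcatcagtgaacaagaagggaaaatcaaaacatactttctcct
The Camk2b probe lies in the association domain, the part that all forms of the kinase subunit use to assemble into holoenzymes.

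Camk4 and Camkk2, which encode a kinase and a kinase that activates it, were higher in cortex, while Prkca and Camk2b were higher in hippocampus. These 4 of 9 genes were called in both genotypes, against 11.4% of all genes tested. Taken by genotype, 3 were called higher and 2 lower in KO cortex over KO hippocampus (15% of all genes called), and 2 higher and 2 lower in WT cortex over WT hippocampus (15.2%). The median size of the difference regardless of sign was 0.37 for the 9 genes in KO and 0.27 in WT, beside 0.13 and 0.14 for all genes. In 7 of 9 genes the cortex and hippocampus samples did not overlap, in the same direction in both genotypes, where 38.8% of all genes showed this.

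**Figure D1:**
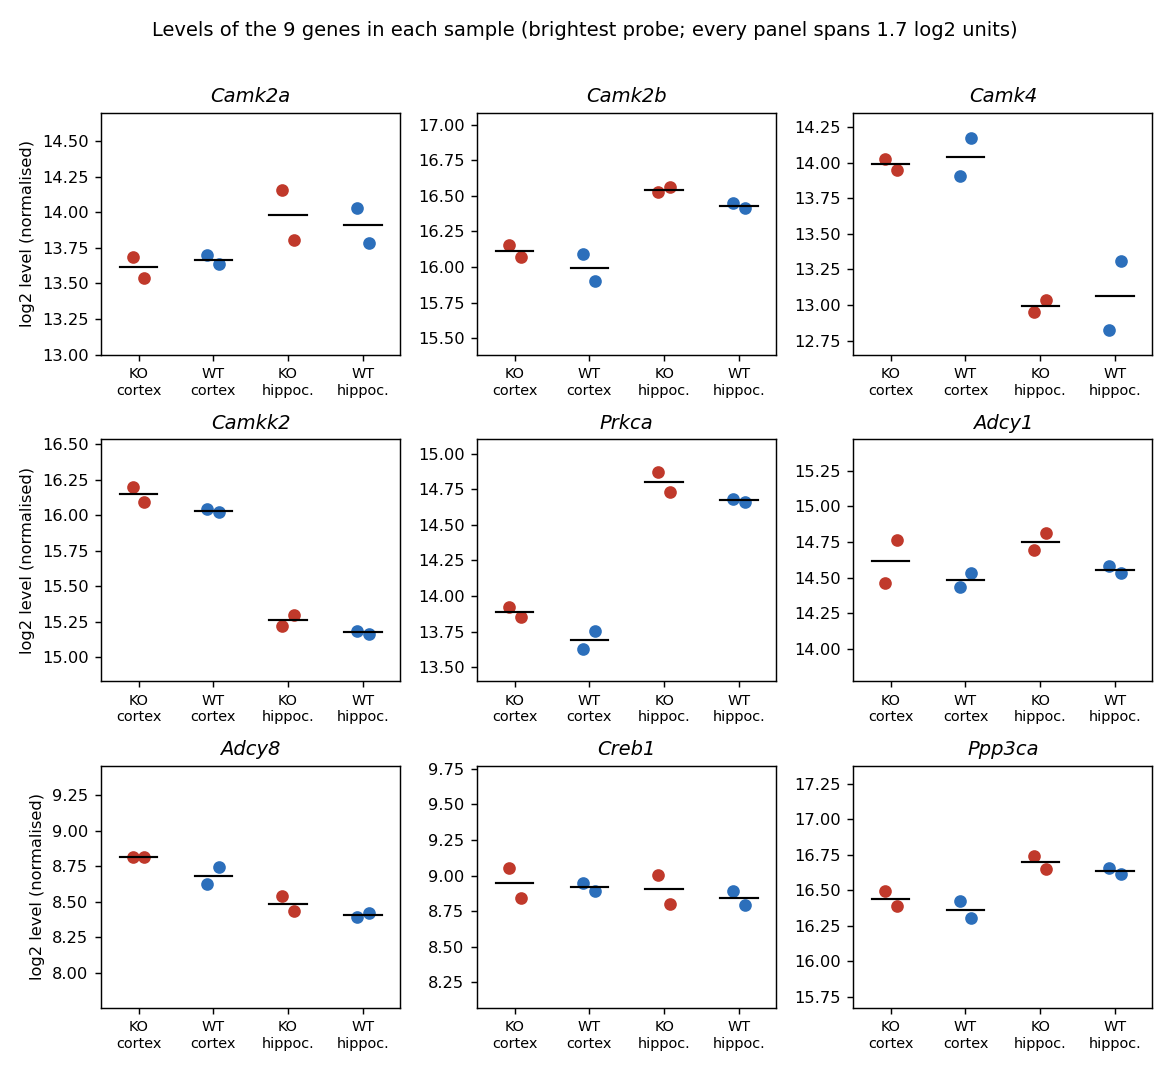
Log2 level of each of the 9 genes in the 8 samples, for KO (red) and WT (blue), cortex on the left of each panel and hippocampus on the right. Points are samples and lines are group means. Camk4 and Camkk2 are higher and Prkca and Camk2b lower in every cortex sample than in every hippocampus sample, while Adcy1 and Creb1 overlap.

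Camkk2 encodes calcium/calmodulin-dependent kinase kinase 2, which phosphorylates and activates CaMKIV, CaMKI and AMP-activated kinase. Its level was 16.20 and 16.09 in KO cortex and 15.22 and 15.30 in KO hippocampus, and 16.04 and 16.02 in WT cortex and 15.18 and 15.16 in WT hippocampus. Every cortex sample was therefore higher than every hippocampus sample, by several times the gap between replicates. The difference was 0.89 in KO (SE 0.07, limma adjusted p = 0.000484), a 1.85-fold higher signal in cortex. In WT it was 0.86 (SE 0.07, limma adjusted p = 0.000525), or 1.81-fold. The second probe, whose sequence is shown above, gave 0.95 in both genotypes (SE 0.07). Camkk2 thus changed by nearly the same amount at both places in its transcript, and it stayed called under all 16 alternatives tried for each genotype.

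CaMKIV, the product of Camk4, is a largely nuclear kinase that phosphorylates CREB and is a substrate of CaMKK2. The brightest of its probes read 14.02 and 13.95 in KO cortex and 12.95 and 13.04 in KO hippocampus, and 13.91 and 14.18 in WT cortex and 12.82 and 13.31 in WT hippocampus. Cortex lay above hippocampus in both genotypes with no overlap, and the WT replicates were farther apart than the KO replicates in both tissues. The difference was 0.99 in KO (SE 0.16, limma adjusted p = 0.00844) and 0.98 in WT (SE 0.16, limma adjusted p = 0.009). Its other probes gave smaller differences in the same direction, 0.65 and 0.68 in KO and 0.77 and 0.50 in WT, and each passed in the fit over 26017 probes. Without cortex replicate 1 the adjusted p was 0.0969 in KO and 0.0642 in WT, and without cortex replicate 2 it was 0.0801 and 0.122, with differences still between 0.84 and 1.11.

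Prkca encodes protein kinase C alpha, a conventional isoform that needs calcium and diacylglycerol. It read 13.92 and 13.85 in KO cortex and 14.87 and 14.73 in KO hippocampus, and 13.63 and 13.76 in WT cortex and 14.68 and 14.66 in WT hippocampus. All cortex samples were lower, in a mirror image of Camkk2. Signal fell by 0.92 in KO cortex relative to KO hippocampus (SE 0.08, limma adjusted p = 0.000776), a 1.89-fold lower level. In WT it fell by 0.98 (SE 0.08, limma adjusted p = 0.000577), a 1.97-fold lower level. The dimmer probe gave −0.68 in KO and −0.73 in WT (SE 0.10 each) and passed in both. As with Camkk2, the call held under all 16 alternatives in each genotype.

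Camk2b and Camk2a encode the beta and alpha subunits of calcium/calmodulin-dependent kinase II, the most abundant kinase of the postsynaptic density. Camk2b read 16.16 and 16.07 in KO cortex and 16.52 and 16.56 in KO hippocampus, and 16.09 and 15.90 in WT cortex and 16.45 and 16.41 in WT hippocampus. Cortex was lower in every sample, by less than for Prkca. The difference was −0.43 in KO (SE 0.08, limma adjusted p = 0.0148) and −0.44 in WT (SE 0.08, limma adjusted p = 0.0142), or 1.35-fold in each. The coding-sequence probe printed above gave −0.58 in both genotypes (SE 0.10). This call was less firm than the others. Leaving out any 1 array ended it in both genotypes, with adjusted p between 0.0733 and 0.12 in KO and between 0.0598 and 0.161 in WT, while the difference stayed between −0.47 and −0.39 in KO and between −0.53 and −0.34 in WT. Omitting normalisation between arrays ended it too (adjusted p = 0.0956 in KO and 0.0931 in WT).

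Camk2a had the same direction as Camk2b but did not pass. Its levels were 13.68 and 13.54 in KO cortex and 14.15 and 13.81 in KO hippocampus, and 13.70 and 13.64 in WT cortex and 14.03 and 13.79 in WT hippocampus. Cortex and hippocampus did not overlap, yet the hippocampus replicates differed from each other almost as much as the tissues did. The difference was −0.37 in KO (95% interval −0.67 to −0.06, limma adjusted p = 0.11) and −0.24 in WT (95% interval −0.55 to 0.06, limma adjusted p = 0.268). Without hippocampus replicate 2 it was −0.54 in KO (limma adjusted p = 0.0312) and −0.37 in WT (0.0803), and without hippocampus replicate 1 it was −0.19 in KO (0.295) and −0.12 in WT (0.483).

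**Figure D2:**
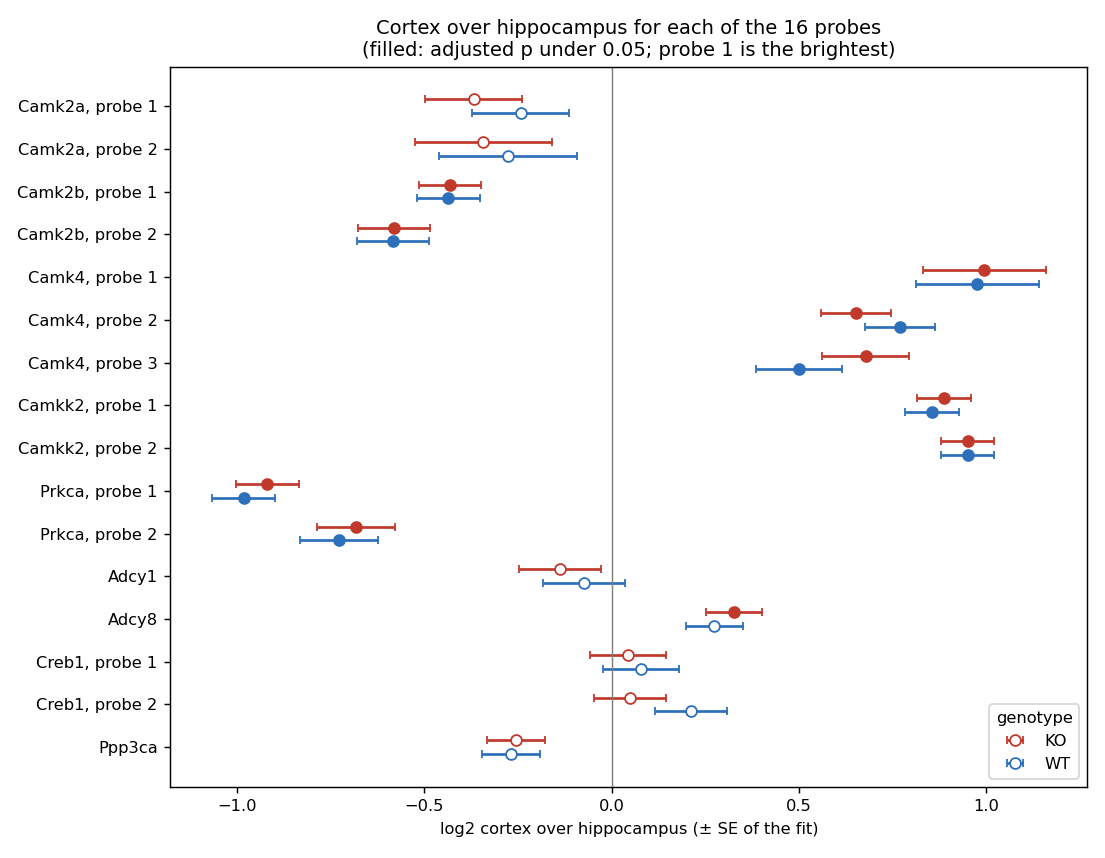
Log2 ratio of cortex over hippocampus for each of the 16 probes in KO (red, upper point of each pair) and WT (blue, lower point), with the SE of the fit over all probes. Filled points passed at an adjusted p under 0.05: all probes of Camk2b, Camk4, Camkk2 and Prkca in both genotypes and the Adcy8 probe in KO.

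Counting probes in place of genes, 6 of 16 were called higher and 4 lower in KO cortex over KO hippocampus (11.5% of all probes called), and 5 higher and 4 lower in WT (12.3%). Where a gene had several probes, all of them had the same sign within each tissue comparison. For Creb1 neither probe passed, and its dimmer probe was well above background in no WT sample, so its shared sign carries little. The probes of a gene share its transcripts and its samples and are not replicates.

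Adcy1 and Adcy8 encode the adenylyl cyclases that calcium and calmodulin stimulate directly, and they join the calcium to the cAMP route. The Adcy8 probe read 8.81 and 8.81 in KO cortex and 8.54 and 8.44 in KO hippocampus, and 8.63 and 8.74 in WT cortex and 8.40 and 8.42 in WT hippocampus. Cortex was higher throughout, by a small margin. The difference was 0.33 in KO (SE 0.07, limma adjusted p = 0.0291) and 0.27 in WT (SE 0.07, limma adjusted p = 0.0519), which puts differences of similar size on opposite sides of the threshold. The KO call was lost when any 1 array was left out, with adjusted p between 0.0701 and 0.208 and a difference of 0.28 to 0.38. It was also lost with all local backgrounds kept as measured, where the difference was 0.16 (adjusted p = 0.194). The WT difference, which missed the threshold in the main fit, was called under 5 of 16 alternatives.

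Adcy1 showed no tissue order. It read 14.46 and 14.77 in KO cortex and 14.69 and 14.81 in KO hippocampus, and 14.43 and 14.53 in WT cortex and 14.58 and 14.53 in WT hippocampus. The tissues overlapped in both genotypes. The difference was −0.14 in KO (95% interval −0.39 to 0.12) and −0.07 in WT (95% interval −0.33 to 0.18), and neither passed (limma adjusted p = 0.479 and 0.71).

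Creb1, the transcription factor on which these kinases converge, overlapped between tissues as well. It read 9.05 and 8.84 in KO cortex and 9.0 and 8.80 in KO hippocampus, and 8.95 and 8.89 in WT cortex and 8.89 and 8.79 in WT hippocampus. The tissue difference was 0.04 in KO (95% interval −0.19 to 0.28) and 0.08 in WT (95% interval −0.16 to 0.31).

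Ppp3ca encodes the catalytic A alpha subunit of calcineurin, the calcium/calmodulin-dependent phosphatase that opposes the kinases. It read 16.49 and 16.39 in KO cortex and 16.74 and 16.65 in KO hippocampus, and 16.42 and 16.31 in WT cortex and 16.66 and 16.61 in WT hippocampus. All 4 cortex samples were lower than all 4 hippocampus samples. The difference of −0.26 in KO (SE 0.08, limma adjusted p = 0.0704) and −0.27 in WT (SE 0.08, limma adjusted p = 0.0585) nonetheless missed the threshold, and 3 of 16 alternatives in KO and 6 of 16 in WT called it.

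The tissue differences were nearly equal in KO and WT. The largest gap between the genotypes' tissue differences was in Camk2a (−0.12, SE 0.10), and the 9 gaps lay between −0.12 and 0.06. None passed in the test of this difference (limma adjusted p = 1.0 for each, and 0% of all genes called, 4.52% at an unadjusted p under 0.05). The widest 95% interval was that of Camk4, −0.49 to 0.52, and the narrowest that of Ppp3ca, −0.22 to 0.24. A gap that lies inside a gene's own interval is not excluded by these arrays.

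KO against WT gave small differences in these genes. No member was called in cortex (0.0611% of all genes called), in hippocampus (0.0183%) or in the mean of both tissues (11%). At an unadjusted p under 0.05 there were 2 members in the mean of both tissues, Adcy1 and Prkca, beside 33.9% of all genes. In that mean 8 members lay above 0 and 1 below, with a median of 0.10 against 0.03 for all genes. The 9 neuronal markers measured also had 8 above 0 and 1 below there, with a median of 0.13, so this lean is not particular to the members. In 6 of 9 all 4 arrays were above 0 (28.1% of all genes), and in 0 of 9 all 4 were below (17.7%).

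Prkca had KO over WT log2 ratios of 0.29 and 0.10 in cortex and 0.19 and 0.07 in hippocampus. For Adcy1 they were 0.03 and 0.23 in cortex and 0.11 and 0.28 in hippocampus. Both genes were above 0 on every array, and both averaged 0.16 (SE 0.06 each), with limma adjusted p of 0.13 for Prkca and 0.142 for Adcy1. The dimmer probe of Prkca did not share that direction, at −0.04 (SE 0.05). The lowest adjusted p was 0.265 in cortex, for Prkca, and 0.255 in hippocampus, for Adcy1.

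Among the calmodulin kinases, Camk2b had ratios of 0.07 and 0.17 in cortex and 0.08 and 0.15 in hippocampus. Camkk2 had 0.16 and 0.07 in cortex and 0.04 and 0.13 in hippocampus. Both were above 0 on all arrays for the brightest probe, whereas the second probe of each averaged slightly below 0 (−0.05 and −0.04, SE 0.05 each). The means were 0.12 for Camk2b (95% interval −0.01 to 0.24, limma adjusted p = 0.172) and 0.10 for Camkk2 (95% interval −0.03 to 0.23, limma adjusted p = 0.213).

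Camk4 split by replicate number and not by tissue. Its ratios were 0.11 in cortex replicate 1 and 0.12 in hippocampus replicate 1, and −0.22 in cortex replicate 2 and −0.27 in hippocampus replicate 2. The mean was −0.06 with the widest interval of the 9 genes, −0.32 to 0.19. At its other probes the same arrays gave −0.05 and 0.15 in replicate 1 and 0.19 and 0.22 in replicate 2, and 0.01 and −0.27 in replicate 1 and 0.17 and 0.09 in replicate 2, so the split was not shared.

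Camk2a had −0.01 and −0.09 in cortex and 0.12 and 0.02 in hippocampus, with a mean of 0.01 (95% interval −0.12 to 0.14). Adcy8 had 0.19 and 0.07 in cortex and 0.14 and 0.01 in hippocampus, with a mean of 0.10 (95% interval −0.03 to 0.24). Ppp3ca had 0.07 and 0.08 in cortex and 0.08 and 0.04 in hippocampus, the tightest set of the 9, with a mean of 0.07 (95% interval −0.05 to 0.18). None of these passed (limma adjusted p = 0.915, 0.227 and 0.321).

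**Figure D3:**
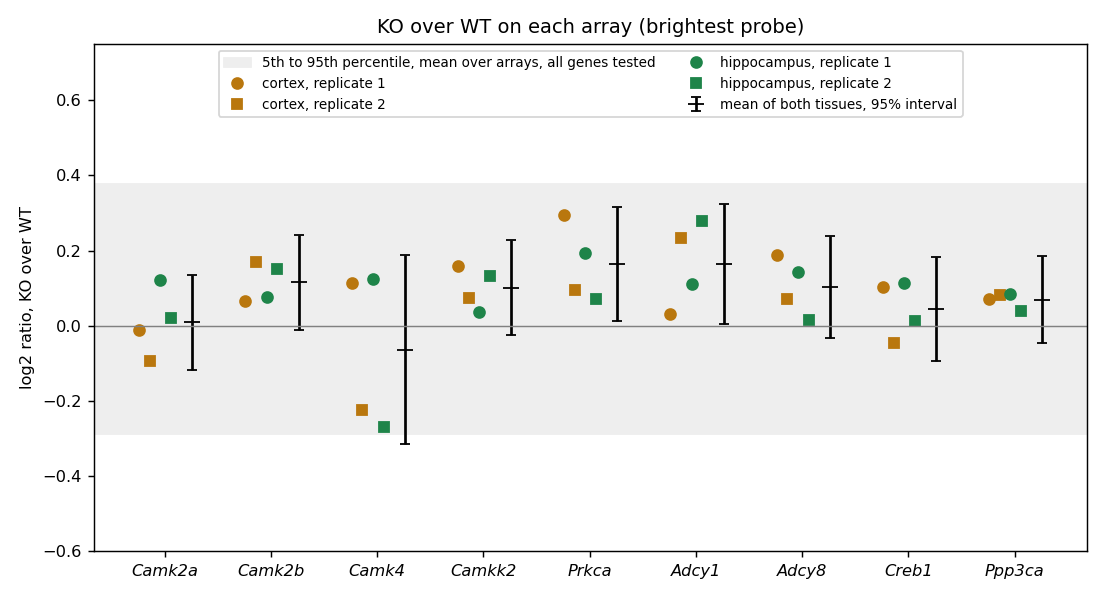
Log2 ratio of KO over WT on each of the 4 arrays (coloured points), with the mean of both tissues and its 95% interval (black). The grey band runs from the 5th to the 95th percentile of that mean over all genes tested, −0.29 to 0.38. Every member's mean lies inside the band, and the intervals of Prkca and Adcy1 alone stop short of 0.

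Creb1 gave different values at its 2 probes. At the brighter, chr1:64651061-64651120 on the plus strand, the ratios were 0.10 and −0.05 in cortex and 0.11 and 0.01 in hippocampus, with a mean of 0.04 (SE 0.05, limma adjusted p = 0.579). At the dimmer, chr1:64644633-64644692, they were 0.26 and 0.29 in cortex and 0.28 and 0.59 in hippocampus, all above 0. That probe was the only one of the 16 called in any KO comparison, at 0.35 in the mean of both tissues (SE 0.07, limma adjusted p = 0.0416, 12.3% of all probes called), while 0.0384% of probes were called in cortex, 0.00384% in hippocampus and 0% in the difference of the tissues. It was well above background in all 4 KO samples and in no WT sample. It therefore entered the test only through the KO samples, where it read higher. With its WT level not well above background, the call does not establish a rise in KO, and no fold is given. The KO and WT values of this probe are also open to dye bias.

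All of these ratios depend on how the dyes were balanced. When each array was centred on its median in place of loess, which follows the dye ratio along the brightness scale, 8 of 9 members were called in the mean of both tissues, together with 10221 of all 16359 genes. Under that setting Camk2b read 0.62 and Ppp3ca 0.60 higher in KO, whereas Adcy8 and Creb1 fell by 0.20 and 0.18.

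The genes around the 9 were followed in 6 lists of 119 other pathway genes, of which 114 were tested. In KO cortex over KO hippocampus 26 of the 114 were called higher and 9 lower, and in WT 32 higher and 9 lower. All genes gave 7.63% higher and 7.41% lower in KO, and 7.29% higher and 7.92% lower in WT. The median over the lists was 0.07 in KO and 0.04 in WT, beside −0.01 and −0.03 for all genes. Protein kinase A with its anchors had 6 of 18 higher in KO and 7 of 18 in WT, with none lower. Adenylyl cyclases, G proteins and phosphodiesterases had 9 of 24 higher and 1 lower in each genotype. Calmodulin and its kinases divided, with 5 higher and 5 lower of 21 in KO and 6 higher and 3 lower in WT, as did the protein kinase C family, with 2 higher and 3 lower of 15 in KO and 3 higher and 4 lower in WT. The CREB family had 2 of 19 higher in KO and 3 in WT with none lower, and calcineurin, protein phosphatase 1 and their partners had 2 of 17 higher and 0 lower in KO and 4 higher and 1 lower in WT.

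**Figure D4:**
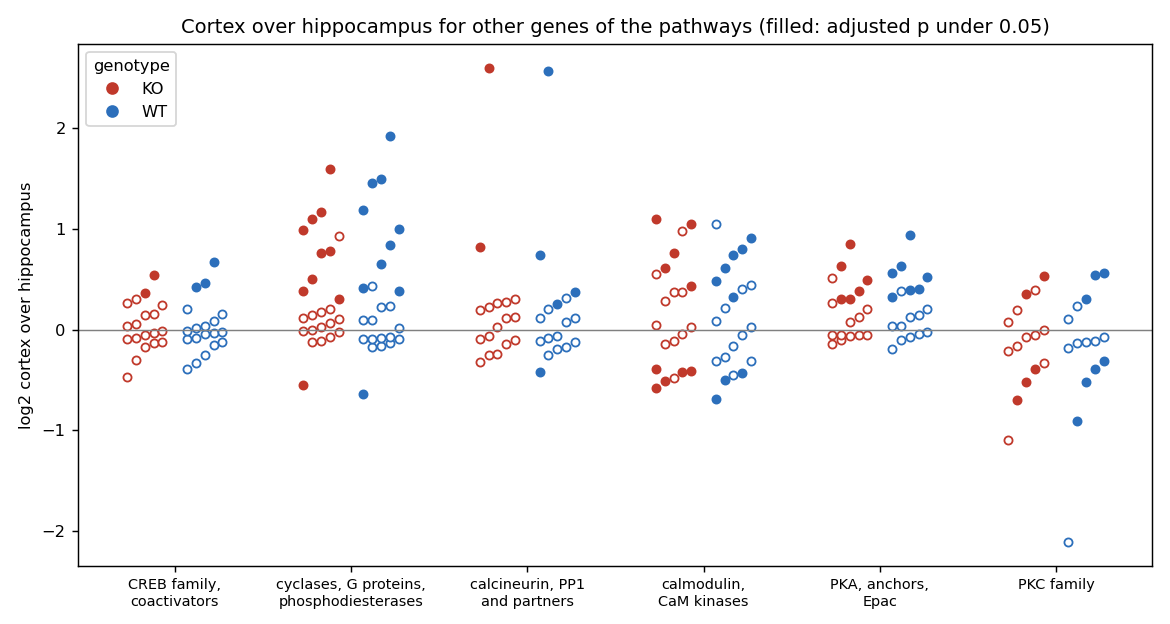
Log2 ratio of cortex over hippocampus for the 114 tested genes of the 6 pathway lists, KO (red) left of WT (blue) in each list. Filled points passed at an adjusted p under 0.05. The highest points, near 2.6, are Ppp1r1b in both genotypes, and the lowest, an open point in WT, is Prkcd.

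The largest differences toward cortex were in Ppp1r1b (DARPP-32, an inhibitor of protein phosphatase 1 under the control of protein kinase A), at 2.60 in KO and 2.56 in WT (SE 0.18 each, limma adjusted p = 0.000269 and 0.000267). Pde10a, a phosphodiesterase that breaks down cAMP and cGMP, was 1.60 higher in KO and 1.93 higher in WT (SE 0.18 each). Adcy5, an adenylyl cyclase that calcium inhibits, was 1.17 higher in KO and 1.49 higher in WT (SE 0.11 each). All 3 also stand on the list of striatal markers, which was higher in the cortex samples as given above. That list averaged lower in KO cortex than in WT cortex. The part of striatal tissue in these differences was not tested. Pcp4, a small calmodulin-binding protein, was 1.1 higher in KO and 0.91 higher in WT (SE 0.22 each, limma adjusted p = 0.0185 and 0.0374). Adcyap1, the neuropeptide PACAP that stimulates cyclases, was 1.46 higher in WT (SE 0.35, limma adjusted p = 0.0346), with a difference of 0.93 in KO that did not pass (adjusted p = 0.133). The KO call of Pcp4 and the WT call of Adcyap1 were lost without either cortex replicate. Of 16 alternatives, 3 ended the KO call of Pcp4 and 5 the WT call of Adcyap1. The WT call of Pcp4 was not followed through the alternatives.

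Toward hippocampus, Camkk1, the sister gene of Camkk2, fell by 0.58 in KO and by 0.69 in WT (SE 0.11 each). Camkk1 read 14.62 and 14.64 in KO cortex and 15.20 and 15.21 in KO hippocampus, and 14.27 and 14.42 in WT cortex and 15.18 and 14.88 in WT hippocampus. Its cortex samples were lower throughout, so the kinase kinases ran in opposite directions between the tissues. Adcy9, a cyclase that calmodulin does not stimulate, fell by 0.55 in KO and by 0.64 in WT (SE 0.09 each), and Prkce, a protein kinase C that does not need calcium, fell by 0.52 in both (SE 0.13 each). The Prkce calls were lost whichever array was left out (adjusted p 0.0983 to 0.211 in KO and 0.058 to 0.232 in WT). Those of Camkk1 and Adcy9 were lost without either cortex replicate, with adjusted p up to 0.147 and 0.142 in KO and 0.111 and 0.0815 in WT. Prkcd, named here after its values were seen, read 9.98 and 10.16 in KO cortex and 11.43 and 10.90 in KO hippocampus, and 10.41 and 10.27 in WT cortex and 11.50 and 13.39 in WT hippocampus. It missed the threshold in both genotypes (limma adjusted p = 0.268 in KO and 0.0509 in WT), and its highest sample is the WT hippocampus sample with the high thalamic markers, a list on which Prkcd stands.

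In KO against WT, 6 of the 114 list genes were called higher and 2 lower in the mean of both tissues, beside 7.18% and 3.84% of all genes, with a median of 0.03 for the lists and 0.03 for all genes. Calm2, which encodes calmodulin, was among them. It read 17.78 and 17.55 in KO cortex and 17.71 and 17.54 in KO hippocampus, against 17.21 and 16.86 in WT cortex and 17.14 and 17.04 in WT hippocampus. All KO samples exceeded all WT samples, and the mean was 0.58 higher (SE 0.05, limma adjusted p = 0.0225). Dapk1, a calmodulin-dependent kinase linked to cell death, was 0.37 higher (SE 0.05, limma adjusted p = 0.0283).

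Atf7, a relative of CREB, also passed (limma adjusted p = 0.0315), but it was well above background in no WT sample. It entered the test only through the KO samples, so its call does not establish a rise in KO and no size from the main fit is given. The count of calls above includes it. Akap12, an anchor of protein kinase A, fell by 0.34 (SE 0.06, limma adjusted p = 0.0379). Prkch, a calcium-independent protein kinase C, passed too (limma adjusted p = 0.0236), but only 1 of 4 WT samples was well above background, so neither size nor direction is given. None of these 8 calls held when all local backgrounds were kept as measured, or with an intensity trend and robust estimation. Among all genes tested, 3 and 0 were called in those runs, against 1803 in the main fit. Leaving out any 1 array also ended all 8 calls, as it ended nearly every call among all genes. The loss is therefore not particular to these genes.

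For the 4 members called in both genotypes, the genes whose pattern over the 8 samples was most alike were found by Pearson's r after each dye was centred on its mean. Nptx2 and 6330527O06Rik followed Camkk2 most closely (r = 0.999 and 0.998), and Grhl3 and Fggy followed Camk4 (0.998 and 0.996). Fat4 and Thsd4 were nearest to Prkca (1.0 and 0.998), and Tmem131 and Rapgef6 to Camk2b (0.997 and 0.996). The 4 members were picked for their tissue difference, so a gene with a clear tissue difference in the same direction will have a high r with them. With 8 samples that share a slide and 4 arrays, such values are common: 615 to 926 of 16358 genes exceeded 0.95 for each of these members. Camkk2 and Camk4 had r = 0.958 with each other, and Camkk2 and Prkca r = −0.992, values that the same choice largely sets.

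Tet1 acts on methylated CG pairs. The stretch before the transcription start is shown for the 2 firmest tissue differences, which were nearly equal in KO and WT. Methylation was not measured, and a link between these sequences and the differences was not tested. RefSeq windows (GRCm38.p6) matched 5 of the 9 members. In the 250 bases before the start, Camk2b had 44 CG pairs, Prkca 39, Camkk2 32, and Adcy1 and Creb1 26 each, where the median of 32851 windows was 6. Capitals mark each CG.
Camkk2, chr5:122779411-122779660, minus strand: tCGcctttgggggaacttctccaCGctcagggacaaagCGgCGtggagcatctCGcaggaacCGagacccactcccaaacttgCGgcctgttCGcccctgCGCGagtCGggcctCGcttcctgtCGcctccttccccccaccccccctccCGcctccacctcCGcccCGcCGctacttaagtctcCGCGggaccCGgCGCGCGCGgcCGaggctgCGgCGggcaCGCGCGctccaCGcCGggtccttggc
Prkca, chr11:108343889-108344138, minus strand: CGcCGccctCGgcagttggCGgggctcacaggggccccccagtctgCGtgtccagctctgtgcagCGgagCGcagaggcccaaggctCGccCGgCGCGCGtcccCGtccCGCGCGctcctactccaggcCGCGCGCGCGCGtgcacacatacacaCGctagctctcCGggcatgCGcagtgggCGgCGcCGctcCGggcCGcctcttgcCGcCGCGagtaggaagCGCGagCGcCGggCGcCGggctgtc
More CG than 95.42% of windows were found for Camkk2 and more than 98.44% for Prkca. The cAMP response element that CREB binds was searched on both strands as its core TGACG and as the full site, in which the core runs directly into TCA. Neither form was found in the 5 windows, while 17.77% of all windows hold the core and 1.546% the full site. Every full site contains the core.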

How the data were processed

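Scanner intensities were deposited by the authors as Feature Extraction 10.1.1.1 output, per the file headers, with mean signal, local background, flags and mm9 probe positions. The authors' log2 value table, 1 column per channel, served as an alternative. The submitters' processing notes name limma without saying what it did. Feature Extraction's own log10 ratio, deposited in the scanner files, gave no result here.

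In R 4.3.3 with limma 3.58.1, backgrounds were corrected by normexp (offset 50), taking the array median for spots marked as having an outlying local background. Loess (span 0.3, control spots at weight 0) normalised each array, and Aquantile scaled the arrays to each other. A gene took its brightest probe. It was tested if both arrays of 1 group or more put that probe well above background, and 29 genes with outlying spots were dropped, for 16359 in all. The log ratios of KO over WT were fitted with a mean for each tissue (2 residual and 2.62 prior degrees of freedom). Tissues were compared within genotype by a separate-channel fit (intraspot correlation 0.194, 4 residual and 2.91 prior degrees of freedom). A second run covered 26017 probes. P-values were adjusted by Benjamini-Hochberg over all features, and the fits were tested on simulated data.

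The members, the pathway and marker lists and the background step were chosen with earlier results of these data known. Named pathway genes are the 4 called changes of largest size in each direction whose samples all agree in sign; some that meet this rule are not reported here.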

Additional observations from a re-analysis of the deposited data

Results flagged for a closer look

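Camk2a met one criterion for a second look: its KO over WT ratio was below 0 on both cortex arrays (−0.01 and −0.09) and above 0 on both hippocampus arrays (0.12 and 0.02). The difference between the tissues' KO effects was −0.12 (SE 0.10), and the limma test of that difference did not pass (adjusted p = 1.0). Its dimmer probe was above 0 on all 4 arrays (0.19 and 0.09 in cortex, 0.14 and 0.27 in hippocampus). Groups of 2 samples are too small for the search for single outlying samples.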

How the results depend on the processing

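In the tissue comparisons Camkk2 and Prkca kept their direction and their call under all 16 alternatives in each genotype, Camk4 kept its call under 14 and Camk2b under 10. The members called numbered 2 to 4 in KO and 2 to 3 in WT when 1 array was left out, a run that used the intraspot correlation of all 4 arrays. With the replicate number as a block across tissues 3 were called in KO, the probes called were 6 in KO and 5 in WT, and other pathway genes 19 and 22; the Camk2b and KO Adcy8 calls were lost, and KO against WT still called no member, while all genes called there were 86 in cortex, against 10, and 395 in hippocampus, against 3. The labels do not pair the tissues and there are 2 numbers; same-numbered samples' deviations correlated across genes at r = 0.161 for log ratios, 0.24 for KO levels and −0.09 for WT levels. Without 1 array the probes called were 3 to 9 in KO and 3 to 8 in WT, and the other pathway genes 7 to 28 and 9 to 35.

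For KO against WT no member was called under any alternative except median centring, which gave 5 in cortex, 7 in hippocampus and 8 in the mean of both tissues. Median centring put the median of the genes tested at 0.50 to 0.59 on the arrays, and values are relative to it, a step added after seeing the data. Other pathway genes called in that mean were 79 with median centring, 3 with Feature Extraction's processed signals, 4 with the mean of a gene's probes, and 0 with local backgrounds kept, with an intensity trend or without any 1 array. All genes called there were 1803, against 10221 with median centring, 3 with local backgrounds kept, 1130 with processed signals, 3239 when dim probes were kept, 998 when a gene had to be well above background in every group, 0 with an intensity trend and 0 to 1 without 1 array; in the tissue comparisons they fell to 625 in KO and 706 in WT without 1 array, and to 1633 in KO with the replicate block, against 2462 and 2488.

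Signs changed in values that did not pass, except under median centring. KO over WT was −0.0461 for Camk2a and −0.00644 for Creb1 with local backgrounds kept, and −0.00571 for Ppp3ca with processed signals. It was 0.0217 for Camk4 with the mean of its probes. With median centring it was 0.19 for Camk4, −0.20 for Adcy8, −0.18 for Creb1 and −0.64 for Atf7. Atf7 was well above background in no WT sample, so that value does not establish a fall in KO. Without 1 array, KO over WT ranged from −0.0168 to 0.0341 for Camk2a and from −0.163 to 0.0349 for Camk4, and cortex over hippocampus in KO from −0.288 to 0.0149 for Adcy1 and from −0.0581 to 0.147 for Creb1. Cortex over hippocampus was −0.00116 for Creb1 in KO with local backgrounds kept, and 0.041 for Adcy1 in WT without normalisation between arrays. The cause of these shifts was not tested. As a separate limit, background affects WT values of dim probes most, since fewer WT spots were well above it. The brightest probe of every member was well above background in all samples.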
